A study of Mus musculus with 6 samples.

Results

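The 10 genes described here were 5 transcription factor genes of the skeletal muscle lineage (Pax7, Myf5, Myod1, Myf6 and Myog), the fusion gene Mymk, and 4 genes of the striated muscle cytoskeleton and sarcomere (Des, Acta1, Actc1 and Tnnt2). They were chosen by gene symbol, and all 10 were found among the 49315 genes of the deposited table. The RNA came from primary mouse embryonic fibroblasts, cells of mainly connective tissue origin that attach and spread when embryo tissue is put in culture; embryos were at E13.5, and the cells were lysed at passage 0 after 2 days in dishes. R206H cells were heterozygous for the mutant allele (Acvr1R206H/+) and wild-type (WT) cells were Acvr1+/+, with 3 libraries of each genotype. Acvr1 encodes the BMP receptor ALK2 (BMPs are bone morphogenetic proteins), and the R206H allele causes most cases of fibrodysplasia ossificans progressiva (FOP), in which bone forms inside muscle and other soft tissue. The design text calls the libraries biological replicates, and the sources used here do not state strain, sex, dissection or whether each library came from its own embryo, so the tests measure the spread between these libraries.

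Skeletal muscle forms from progenitors that carry the paired-box factor Pax7. The basic helix-loop-helix factors Myf5 and MyoD (Myod1) commit cells to the lineage, and myogenin (Myog) and Mrf4 (Myf6) drive differentiation. Committed myoblasts then fuse into fibres through the membrane protein myomaker (Mymk) and build sarcomeres. BMP signalling holds back this programme in muscle precursors, in part through Id proteins, which bind the partners of the myogenic factors.

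Values are TPM, a gene's share of a library's transcripts after scaling for gene length. Estimated depth was 17800000 to 21700000 reads or read pairs in R206H libraries and 17500000 to 24600000 in WT libraries. The fibroblast label was met by its markers: 12 listed fibroblast genes summed to 11110 to 13700 TPM in R206H and 7278 to 9496 TPM in WT. Acvr1 itself had 44.4 ± 2.69 TPM in R206H and 34.7 ± 1.01 TPM in WT (SD, n = 3 each), which does not check the labels, since a point mutation need not change the level. Mitochondrial transcripts took 3.43% to 3.85% of TPM in R206H and 4.16% to 4.57% in WT. Endothelial markers summed to 15.7 to 19.9 TPM in R206H and 18.9 to 42.1 TPM in WT, macrophage and blood markers to 25.0 to 39.4 TPM in R206H and 25.6 to 26.9 TPM in WT, and neural and glial markers to 97.4 to 111.9 TPM in R206H and 69.0 to 79.6 TPM in WT. Of the tested genes of these lists, 0 of 12 fibroblast, 0 of 5 endothelial and 0 of 5 macrophage and blood genes passed a limma test, with 8, 1 and 1 at an unadjusted p under 0.05. In limma voom 8 of the 12 fibroblast genes were higher in R206H, among them Col1a1, Col1a2, Col3a1 and Postn, and 0 endothelial and 0 macrophage and blood genes were called. Of all genes, 26.1% had an unadjusted limma p under 0.05 and limma voom called 8.82% in either direction. Of 7 neural and glial genes 2 were higher (Prph and Tubb3) and 1 lower (Sox10) with limma, where 1.26% and 0.79% of all genes were. The part of any of these in the results was not tested. In bulk RNA, fewer cells of a type and less RNA per cell cannot be told apart.

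Pax7, at 13 reads or fewer in every library, was the sole member whose groups were apart. Skeletal muscle RNA was present in every library of both genotypes, and the SD between libraries was larger in R206H than in WT for every member that passed the filter but Des, where the 2 were alike. R206H library 1 had the highest level of its genotype for 10 of 10 members and the highest of all 6 libraries for 5 of 7 members that passed the filter on low values (TPM of 1 or more in at least 3 libraries). Those 7 were Myod1, Myog, Mymk, Des, Acta1, Actc1 and Tnnt2, while Pax7, Myf5 and Myf6 did not pass. With limma on log2(TPM + 1), 0 of the 7 passed a Benjamini-Hochberg adjusted p of 0.05, where 2.04% of all 14818 genes tested did. At an unadjusted limma p under 0.05 there were also 0 of 7, against 26.1% of all genes, and limma voom on reads rebuilt from the TPM called 0 of 7, against 8.82%. Groups were apart in 0 of the 7, against 32.9% of all genes tested. In 6 of the 7 the log2 difference (R206H minus WT) was negative and in 1 positive, with a median of -0.30, against 0.02 over all genes tested.

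**Figure D1:**
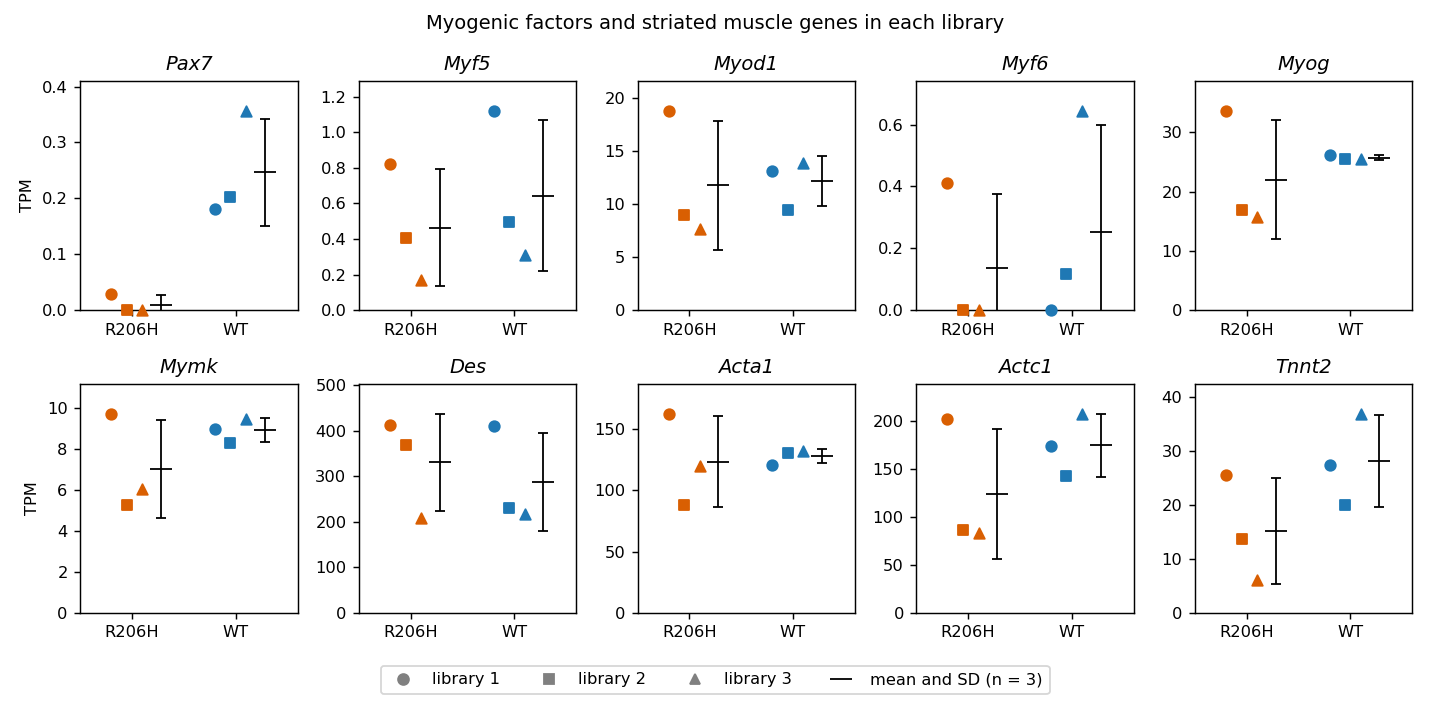
TPM of the 10 genes in each library, with R206H on the left and WT on the right of each panel; symbols mark libraries 1, 2 and 3, and bars give the mean and SD of 3 libraries, cut off at 0. R206H library 1 lies above R206H libraries 2 and 3 in every panel, and the groups are apart in the Pax7 panel alone, where R206H has 0.0292, 0 and 0 TPM.

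The promoters of Myog, Acta1 and Actc1 are shown because the first is the gene through which myogenic factors start differentiation and the other pair are sarcomeric actin genes that such factors and serum response factor act on. Sequences run 5′ to 3′ from 250 bases before to 50 bases after the RefSeq start (build GRCm38.p6). Capitals mark E-boxes, the CANNTG sites that basic helix-loop-helix factors bind, and CArG boxes, the sites of serum response factor. The Myog window is chr1:134289754-134290053 on the + strand, the Acta1 window chr8:123894726-123895025 on the - strand and the Actc1 window chr2:114052826-114053125 on the - strand.
Myog: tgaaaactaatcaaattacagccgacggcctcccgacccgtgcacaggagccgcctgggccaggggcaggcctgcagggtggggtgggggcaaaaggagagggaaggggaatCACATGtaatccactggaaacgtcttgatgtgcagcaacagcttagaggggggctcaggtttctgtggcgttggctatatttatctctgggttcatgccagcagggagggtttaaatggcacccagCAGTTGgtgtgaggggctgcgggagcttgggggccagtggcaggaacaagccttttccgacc
Acta1: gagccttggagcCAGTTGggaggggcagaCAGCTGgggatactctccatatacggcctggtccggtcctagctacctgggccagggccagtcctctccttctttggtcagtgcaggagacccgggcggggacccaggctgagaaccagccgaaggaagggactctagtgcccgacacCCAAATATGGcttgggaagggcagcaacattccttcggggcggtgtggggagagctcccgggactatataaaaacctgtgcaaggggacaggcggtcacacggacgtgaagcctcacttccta
Actc1: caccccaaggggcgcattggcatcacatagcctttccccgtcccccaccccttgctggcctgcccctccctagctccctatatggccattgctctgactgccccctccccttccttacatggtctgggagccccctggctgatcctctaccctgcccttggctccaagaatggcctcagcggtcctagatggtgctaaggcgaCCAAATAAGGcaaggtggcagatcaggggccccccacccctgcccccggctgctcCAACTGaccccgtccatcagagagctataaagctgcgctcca
Both strands were searched. The Myog window held 2 E-boxes and no CArG box, Acta1 had 2 E-boxes and 1 CArG box, and Actc1 had 1 of each. Among the 7 members with a promoter in the RefSeq table (these 3 with Des, Tnnt2, Pax7 and Myf5), an E-box was found in 5, where 72.3% of all 32851 promoters of this length held one, so the letters alone are common. The E-box CAGCTG was found in 3 members (Des, Tnnt2 and Acta1) and in 16.3% of all promoters, and it is counted among the E-boxes too. A CArG box was found in 2 members and in 1.63% of all promoters. The MEF2 consensus, the motif of another muscle factor family, was searched as exact matches to YTAWWWWTAR (Y is C or T, W is A or T, R is A or G). It was found in 0 members and 3.19% of all promoters. Near matches, such as CTATATTTAT in the Myog window, were not counted, so the search does not show that a MEF2 site is absent.

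Pax7, the factor of muscle progenitors and satellite cells (chr4:139737062-139833528 on the - strand, GRCm38), was the member whose groups did not overlap. It had 0.0292, 0 and 0 TPM in R206H libraries 1, 2 and 3, and 0.181, 0.202 and 0.357 TPM in WT libraries 1, 2 and 3. These values stood for 1, 0 and 0 rebuilt reads in R206H and 5, 8 and 13 in WT. Every R206H library was thus below every WT library, but all levels were close to the detection limit. The limit that 3 reads give was 0.107 and 0.0900 TPM in R206H libraries 2 and 3, below each WT value. Summed over libraries, 1 read of 60700000 in R206H and 26 of 64700000 in WT gave a ratio of 0.0410, with an exact 95% interval of 0.00100 to 0.250 that covers counting error only. An exact permutation test (two-sided) gave p = 0.1, which is as low as 3 libraries against 3 can go, and in a limma fit with no filter the log2 difference was -0.30 (SE 0.08, adjusted p = 0.165). Among genes that passed the filter, which Pax7 did not, the groups did not overlap in 32.9%. Relative to Myod1, which passed in both genotypes, the TPM of Pax7 was 0.00156, 0 and 0 in R206H libraries and 0.0138, 0.0213 and 0.0258 in WT libraries.

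Pax3, the related factor of migrating muscle precursors, had 0.746, 0.678 and 0.938 TPM in R206H and 1.03, 0.956 and 1.17 TPM in WT, below the filter with groups that did not overlap. Of 16 tested genes in a list of 20 other progenitor and satellite cell genes, 1 was lower in R206H and 0 were higher, where 0.79% of all genes were called lower and 1.26% higher, and the list median was 0.02. The lower gene was Met, the receptor for hepatocyte growth factor that migrating muscle precursors need and that epithelium also expresses. It had 18.7, 17.3 and 15.001 TPM in R206H and 24.2, 26.3 and 27.0 TPM in WT (log2 difference -0.58, SE 0.10, adjusted p = 0.0476). Met passed in 1 of the fits that left out a library, the one without R206H library 1 (adjusted p = 0.0326), and had adjusted p = 0.0517 to 0.167 in the other 5. Epithelial markers were also lower in R206H: 12 of them summed to 404.3, 290.7 and 197.4 TPM in R206H libraries 1, 2 and 3. In WT libraries 1, 2 and 3 they summed to 650.2, 550.9 and 645.7 TPM. Within R206H, Met and this sum both fell from library 1 to library 3. Within WT, Met was lowest in library 1, where the sum was highest. Of 10 epithelial genes tested, 2 were lower, Cldn3 (log2 difference -1.82, adjusted p = 0.0272) and Epcam (-1.49, adjusted p = 0.0476). All 10 had an unadjusted limma p under 0.05, with a median of -1.58, and limma voom called 6 lower (Cldn3, Cldn4, Cdh1, Krt14, Krt18 and Epcam). Of all genes, 26.1% had an unadjusted limma p under 0.05 and limma voom called 8.82% in either direction. The part of the epithelial genes in the Met result was not tested. Meox2, a homeobox gene of limb muscle precursors, had 7.90, 7.56 and 11.6 TPM in R206H and 3.77, 6.01 and 4.36 TPM in WT and did not pass (adjusted p = 0.0776). The cadherin gene Cdh15 and the integrin gene Itga7, both of myoblasts, had log2 differences of -0.29 and -0.24 that did not pass either. Calcr, a marker of quiescent satellite cells, was listed at 0 in 5 libraries and at 0.108 TPM in WT library 1.

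Myf5, which commits cells to the lineage (chr10:107482908-107486134 on the - strand), had 0.821, 0.403 and 0.169 TPM in R206H and 1.12, 0.497 and 0.309 TPM in WT, from 2 to 10 reads in R206H and 4 to 11 in WT. The groups interleaved, and the read ratio over libraries was 0.775 with an exact 95% interval of 0.381 to 1.55 for counting error. Myod1, the other determination factor (chr7:46376474-46379099 on the + strand), had 18.7, 8.91 and 7.65 TPM in R206H and 13.1, 9.45 and 13.8 TPM in WT. R206H library 1 was the highest of all and R206H libraries 2 and 3 the lowest, so the means of 11.8 ± 6.07 TPM in R206H and 12.1 ± 2.34 TPM in WT (SD, n = 3 each) were alike while the R206H spread was wide. The log2 difference was -0.12 (95% interval -0.86 to 0.61, limma adjusted p = 0.836). It was 0.01 without R206H library 2 and 0.11 without R206H library 3, so its sign rested on single libraries.

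Myog, the differentiation factor (chr1:134289989-134292548 on the + strand), had 33.6, 16.8 and 15.6 TPM in R206H and 26.2, 25.5 and 25.5 TPM in WT. The WT libraries agreed closely, and the R206H libraries lay on either side of them. The means were 22.04 ± 10.05 TPM in R206H and 25.7 ± 0.426 TPM in WT (SD, n = 3 each), a log2 difference of -0.30 (95% interval -0.91 to 0.32, limma adjusted p = 0.514). Without R206H library 1 the difference was -0.63 (SE 0.08, adjusted p = 0.0293, against up to 0.862 under the other alternatives), in a fit where 4.87% of all genes passed and 2 of the 7 members did, Myog and Actc1. In that fit 5 of the 7 members had an unadjusted p under 0.05, as did 4031 of the 14818 genes. Myf6, which acts late in fibres (chr10:107492853-107494737 on the - strand), had 0.411, 0 and 0 TPM in R206H and 0, 0.118 and 0.644 TPM in WT, from 0 to 5 reads a library, and no difference was detectable at this depth.

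Myog had a higher TPM than Myod1 in every library, and their ratio was highest in WT library 2. The TPM ratio of Myog to Myod1 was 1.79, 1.89 and 2.04 in R206H libraries and 2.00, 2.70 and 1.84 in WT libraries. Of the summed TPM of the 4 myogenic factors, Myog made up 62.7% to 66.7% in R206H and 63.3% to 71.7% in WT, and Myod1 made up most of the rest. Among their cofactors, 0 of 9 tested genes of 11 listed passed the limma test, and 0 had an unadjusted p under 0.05. Of all genes tested, 2.04% and 26.1% did. The MEF2 family gene Mef2d had 62.5, 62.9 and 64.9 TPM in R206H and 69.8, 62.9 and 67.8 TPM in WT, and Srf, which encodes serum response factor, had a log2 difference of -0.17 (adjusted p = 0.294).

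Genes for the partners and inhibitors of the myogenic factors mostly had positive differences (11 of 12 tested, against 7949 of all 14818). Of the 12, 1 was higher and 0 were lower, where 1.26% and 0.79% of all genes were. An unadjusted limma p under 0.05 was found for 8 of the 12, against 26.1% of all genes, and the list median was 0.35. The called gene was Id3, which encodes an inhibitor that binds E proteins, with 507.4, 520.8 and 612.1 TPM in R206H and 286.9, 334.1 and 345.1 TPM in WT (log2 difference 0.76, SE 0.10, adjusted p = 0.0402). It also passed without R206H library 1 (adjusted p = 0.0298) and without WT library 1 (adjusted p = 0.0439), and had adjusted p = 0.0698 to 0.152 without each of the other 4 libraries. Id1 had 388.4, 380.1 and 415.6 TPM in R206H and 239.9, 289.8 and 337.6 TPM in WT, with groups that did not overlap (log2 difference 0.46, adjusted p = 0.0776). The E-protein genes Tcf3 and Tcf12, whose products pair with the myogenic factors, had log2 differences of 0.18 and 0.23 (adjusted p = 0.141 and 0.103). Hes1, a Notch target, had 0.36 (adjusted p = 0.0511), and limma voom called it higher (adjusted p = 0.0343) beside Id3. Fibroblast markers, like this list, had sums in R206H that lay above those in WT. Within R206H the orders were the same: fibroblast markers summed to 11110, 12300 and 13700 TPM in libraries 1, 2 and 3, and this list to 1654, 1695 and 1942 TPM. Within WT the orders were opposite: fibroblast markers summed to 9496, 8079 and 7278 TPM in libraries 1, 2 and 3, and this list to 1168, 1285 and 1348 TPM. The part of the fibroblast markers was not tested.

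Mymk, the fusion gene (chr2:27061636-27072179 on the - strand), had 9.73, 5.28 and 6.05 TPM in R206H and 8.98, 8.32 and 9.47 TPM in WT. R206H library 1 was again the highest and R206H libraries 2 and 3 the lowest (log2 difference -0.34, 95% interval -0.82 to 0.13, adjusted p = 0.328). Relative to Myog the groups overlapped, with TPM ratios of 0.289, 0.313 and 0.387 in R206H and 0.342, 0.326 and 0.372 in WT. Mymx, which encodes its fusion partner myomixer, had 4.66, 2.45 and 1.88 TPM in R206H and 1.86, 3.02 and 1.41 TPM in WT, and the groups overlapped. Of 14 tested fusion and membrane genes, 0 passed with limma and 6 had an unadjusted p under 0.05, against 2.04% and 26.1% of all genes. The log2 difference was positive in 9 and negative in 5, with a list median of 0.19. limma voom called 1, against 8.82% of all genes. It was the sarcoglycan gene Sgcb, higher in R206H (log2 difference 0.34, adjusted p = 0.0443 with voom, and 0.0290 to 0.191 over all alternatives). Sgcb had 26.7, 27.1 and 30.9 TPM in R206H and 22.2, 20.9 and 22.4 TPM in WT.

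Des, which encodes the intermediate filament protein desmin of all muscle types (chr1:75360329-75368579 on the + strand), did not follow the skeletal factors. It had 413.3, 368.8 and 209.0 TPM in R206H and 411.0, 230.9 and 217.9 TPM in WT, so the first library of each genotype and R206H library 2 were high and the others low. The log2 difference was 0.21 (95% interval -0.55 to 0.96, adjusted p = 0.721). Smooth muscle genes had a partly similar order: Actg2, which encodes smooth muscle gamma-actin, had 492.4, 382.1 and 149.1 TPM in R206H and 205.4, 164.7 and 167.2 TPM in WT. Myh11, the smooth muscle myosin gene, had 32.8, 30.6 and 10.9 TPM in R206H and 17.9, 10.8 and 10.2 TPM in WT. Of 10 smooth muscle genes, 0 passed with limma and 3 had an unadjusted p under 0.05, among them the calponin gene Cnn1, with 232.0, 215.3 and 155.2 TPM in R206H and 115.2, 121.6 and 76.7 TPM in WT (log2 difference 0.94, SE 0.21, adjusted p = 0.0630). limma voom called 2 of the list higher in R206H, Cnn1 (adjusted p = 0.0282) and the myosin light chain kinase gene Mylk (adjusted p = 0.0213). Of all genes, 26.1% had an unadjusted limma p under 0.05 and limma voom called 8.82% in either direction. The list summed to 6369 to 9819 TPM in R206H and 5781 to 7496 TPM in WT, and its part in the Des values was not tested.

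Acta1, the skeletal alpha-actin gene (chr8:123891769-123894751 on the - strand), had 162.9, 88.3 and 119.6 TPM in R206H and 121.2, 130.7 and 132.4 TPM in WT. WT libraries spanned a narrow range inside that of R206H, and the means were 123.6 ± 37.5 TPM in R206H and 128.1 ± 6.04 TPM in WT (SD, n = 3 each), a log2 difference of -0.09 (95% interval -0.56 to 0.37, adjusted p = 0.801). Without R206H library 2 it was 0.12. Actc1, the cardiac alpha-actin gene that embryonic skeletal muscle also uses (chr2:114047282-114053548 on the - strand), had 201.8, 86.3 and 83.7 TPM in R206H and 174.0, 142.5 and 207.9 TPM in WT. R206H libraries 2 and 3 were below all others and R206H library 1 was among the high ones (log2 difference -0.60, 95% interval -1.39 to 0.19, adjusted p = 0.303). Without R206H library 1 the difference was -1.02 (SE 0.15, adjusted p = 0.0309, against up to 0.604 under the other alternatives). The coding sequences of Acta1 and Actc1 are 86.2% identical (977 of 1134 bases) with a longest shared run of 29 bases, and Acta1 and the abundant smooth muscle gene Acta2 are 85.4% identical. Reads were 150 bp long, and how reads that map to several genes were counted is not given in the sources used here. Each of Des, Acta1 and Actc1 overlaps an annotated gene on the opposite strand that was listed at 0 TPM in all libraries.

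In genes of the sarcomere, too, R206H library 1 stood above R206H libraries 2 and 3. Of 34 tested sarcomere genes outside the members, 0 passed with limma, 4 had an unadjusted p under 0.05, and the list median was -0.18. Over all genes tested, 2.04% passed with limma, 26.1% had an unadjusted p under 0.05 and limma voom called 8.82%. R206H library 1 was the highest R206H library for 33 of the 34, where this held for 29.2% of all genes tested, and it was the highest of all libraries for 19 of the 34, against 8.85% of all genes. This order was shared by other lists. R206H library 1 was the highest R206H library for 9 of 10 smooth muscle genes, 13 of 18 cardiac genes and 8 of 10 epithelial genes, and the highest of all libraries for 8, 1 and 0 of them. Mylpf, the fast myosin light chain gene, had 97.7, 47.8 and 60.1 TPM in R206H and 65.9, 65.1 and 72.3 TPM in WT. Myh3, the embryonic myosin heavy chain gene, had 37.4, 17.4 and 22.3 TPM in R206H and 26.0, 25.6 and 22.7 TPM in WT, a log2 difference of -0.02 (95% interval -0.60 to 0.57, adjusted p = 0.976). The adult fast myosin genes Myh2 and Myh4 stayed below 0.3 TPM in every library. The genes with the smallest p were Cryab, a small heat shock protein gene also expressed outside muscle, and Trim54, which encodes a ubiquitin ligase of the sarcomere. Trim54 had 3.45, 1.17 and 0.980 TPM in R206H and 7.38, 4.53 and 8.28 TPM in WT, with groups that did not overlap, and did not pass with limma (log2 difference -1.50, SE 0.35, adjusted p = 0.0671) but did with limma voom (adjusted p = 0.0409), with adjusted p = 0.0289 to 0.208 over all alternatives. Cryab had 267.9, 242.7 and 227.4 TPM in R206H and 311.3, 304.1 and 355.9 TPM in WT (log2 difference -0.39, adjusted p = 0.0611), and voom called it too (adjusted p = 0.0300, and 0.0240 to 0.183 over all alternatives).

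Other genes of working muscle gave few differences. Of 13 tested genes of excitation-contraction coupling, 0 passed with limma and 0 had an unadjusted p under 0.05, with a median of -0.22. R206H library 1 was the highest of its genotype for 11 of the 13. Of 6 tested acetylcholine receptor and synapse genes, 0 passed and 1 had an unadjusted p under 0.05, with a median of -0.34. That gene was the receptor subunit gene Chrnb1, which had 9.86, 7.38 and 5.42 TPM in R206H and 15.8, 13.6 and 15.05 TPM in WT, every R206H library below every WT library (log2 difference -0.92, SE 0.19, adjusted p = 0.0587). limma voom called it (adjusted p = 0.0254, and 0.0194 to 0.183 over all alternatives). The embryonic subunit gene Chrng had 5.54, 2.02 and 3.84 TPM in R206H and 4.28, 4.69 and 5.52 TPM in WT, with overlapping groups, and the adult subunit gene Chrne stayed below 0.2 TPM. The 7 lists of progenitor, cofactor, fusion and membrane, sarcomere, coupling, synapse and muscle energy genes leave out the partners and inhibitors with Id3. Of their 118 genes found, 99 were tested, 1 was lower and 0 were higher, where 0.79% and 1.26% of all genes were. An unadjusted limma p under 0.05 was found for 15 of the 99, against 26.1% of all genes. Without R206H library 1 the count at that p was 35 of 99, against 4031 of all 14818 genes. In that fit 5 of the 99 were called, all lower, against 4.87% of all genes called in either direction.

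**Figure D2:**
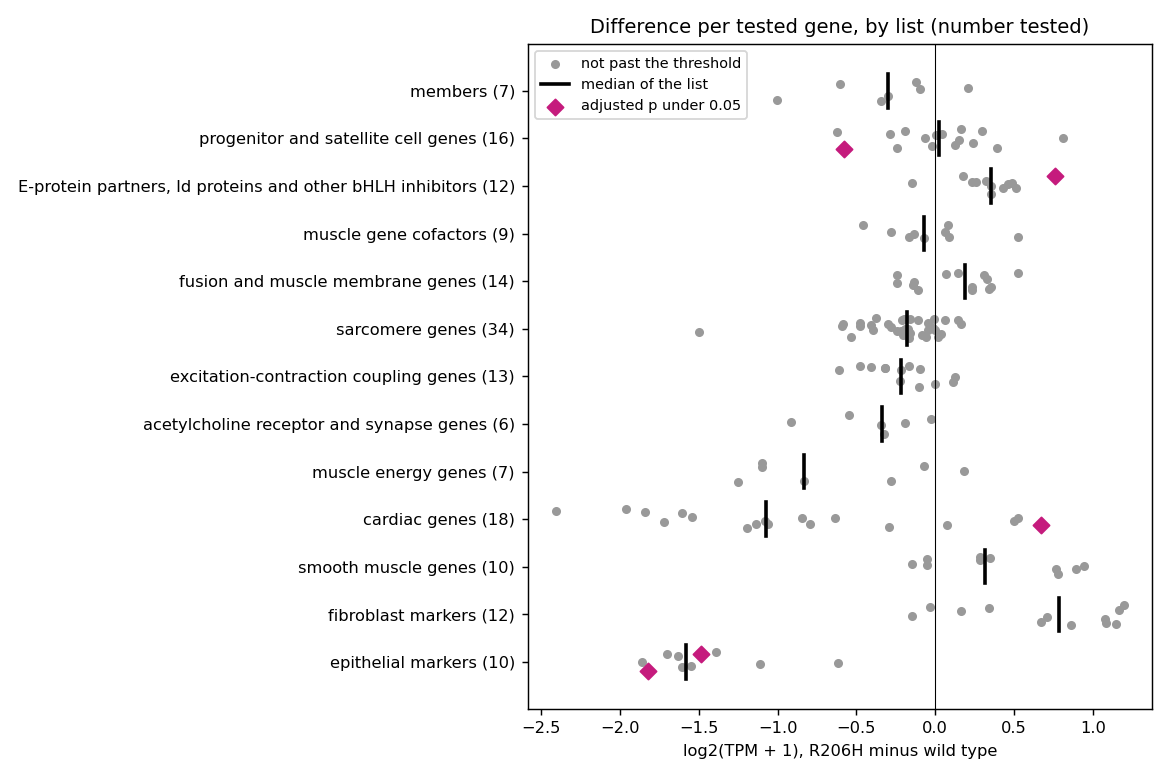
Difference in log2(TPM + 1), R206H minus WT, of each tested gene (points, spread vertically for legibility) by list, with the number tested in brackets, the list median as a bar and genes past the adjusted threshold as diamonds. The members and the sarcomere genes lie slightly left of 0, at medians of -0.30 and -0.18, and the cardiac genes further left, at -1.07.

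Tnnt2 encodes cardiac troponin T, which embryonic skeletal muscle also expresses (chr1:135836354-135852260 on the + strand). It had the largest difference of the tested members, and it did not pass. It had 25.6, 13.8 and 6.10 TPM in R206H and 27.4, 19.9 and 36.9 TPM in WT. R206H libraries 2 and 3 were below all WT libraries, and R206H library 1 lay among them. The means were 15.15 ± 9.82 TPM in R206H and 28.1 ± 8.52 TPM in WT (SD, n = 3 each), a log2 difference of -1.005 (95% interval -2.09 to 0.08, limma adjusted p = 0.219, exact two-sided permutation p = 0.2). Without R206H library 1 the difference was -1.46 (adjusted p = 0.0696), and over all alternatives it lay between -1.46 and -0.51, never past the threshold.

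Cardiac genes varied over the same libraries. Of 18 tested, 1 was higher, 0 were lower and 10 had an unadjusted limma p under 0.05, and the list median was -1.07. Over all genes tested, 1.26% were higher, 0.79% were lower and 26.1% had an unadjusted limma p under 0.05. The limma voom calls included Nppb, lower (adjusted p = 0.0378), and Hand2, higher (adjusted p = 0.0233). Of all genes, limma voom called 8.82% in either direction. Myh6, the cardiac alpha-myosin heavy chain gene, had 23.2, 11.2 and 0 TPM in R206H and 39.4, 15.5 and 65.3 TPM in WT, so R206H library 3 had no read of it, which allows up to 0.0784 TPM. Myl2, the ventricular myosin light chain gene, was listed at 0 TPM in that library too, with 7.37 and 4.31 TPM in R206H libraries 1 and 2 and 13.3, 7.20 and 21.3 TPM in WT. The cardiac factor gene Nkx2-5 had 1.12, 0.551 and 0.346 TPM in R206H and 4.45, 0.775 and 3.90 TPM in WT. Nppb, which encodes a natriuretic peptide, had 14.7, 9.67 and 5.404 TPM in R206H and 22.8, 21.2 and 23.3 TPM in WT (log2 difference -1.19, SE 0.29, adjusted p = 0.0726). Mb, which encodes the oxygen-binding protein myoglobin of heart and skeletal muscle, had 30.0, 14.6 and 5.20 TPM in R206H and 37.1, 18.7 and 38.6 TPM in WT. The 21 cardiac genes summed to 369.6, 274.8 and 118.2 TPM in R206H and 482.9, 332.9 and 596.5 TPM in WT. A large part of each sum was a single gene, Ankrd1, with 224.7, 156.2 and 55.9 TPM in R206H and 271.5, 217.7 and 320.3 TPM in WT. Tnnt2 was lowest in R206H library 3 and highest in WT library 3, as the cardiac sum was, and the part of the cardiac genes in the Tnnt2 values was not tested. The called gene went the other way: Hand2, a factor gene of heart and limb mesenchyme, had 34.3, 37.4 and 29.9 TPM in R206H and 19.2, 20.9 and 22.5 TPM in WT (log2 difference 0.67, SE 0.10, adjusted p = 0.0454). Of the fits without 1 library it passed in the one without R206H library 1 (adjusted p = 0.0440), with adjusted p = 0.0520 to 0.152 in the others.

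**Figure D3:**
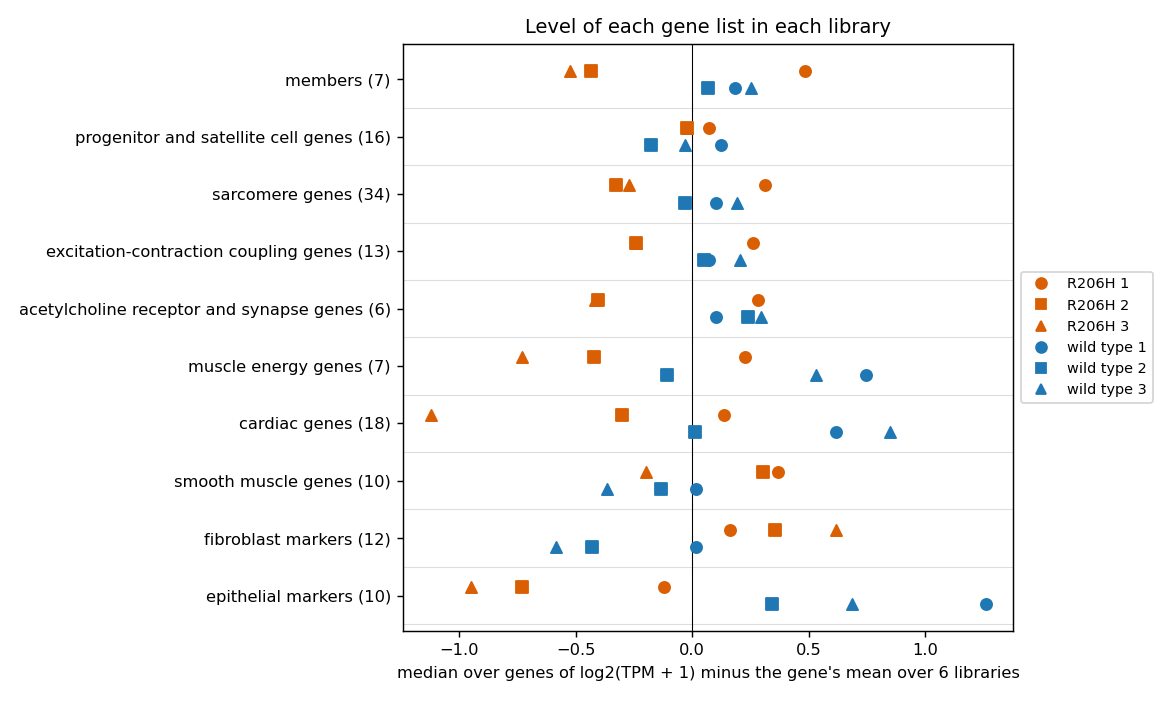
Median over the tested genes of each list (number in brackets) of log2(TPM + 1) minus the gene's mean over 6 libraries, with R206H above WT in each row and a symbol for each library. In the rows of the members and the sarcomere genes R206H library 1 is furthest right and R206H libraries 2 and 3 furthest left, and in the cardiac row R206H library 3 stands at -1.12.

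Shares within gene families remove the family's total TPM from the comparison. The families hold both cardiac and skeletal genes, so a share also depends on the mix of heart and skeletal muscle cells, which was not tested. These families were picked after the values were seen, so their shares are a description. Tnnt2 made up 30.0%, 31.8% and 13.7% of the summed TPM of the 3 troponin T genes in R206H libraries 1, 2 and 3 and 37.7%, 31.1% and 44.1% in WT libraries 1, 2 and 3. R206H library 3 stood apart from the other 5. The slow skeletal gene Tnnt1 took 26.1% to 27.8% in R206H and 21.1% to 22.8% in WT, groups that did not overlap. This share also depends on Tnnt2, which is in the family sum. The TPM of Tnnt1 itself overlapped, with 22.3, 11.5 and 12.4 TPM in R206H and 15.8, 14.6 and 17.6 TPM in WT (log2 difference -0.11, limma adjusted p = 0.803). By TPM, the groups did not overlap in 32.9% of all genes tested. Actc1 made up 55.3%, 49.4% and 41.2% of the summed TPM of Actc1 and Acta1 in R206H and 58.9%, 52.2% and 61.1% in WT. Of 5 myosin heavy chain genes, the cardiac Myh6 took 34.3%, 34.8% and 0% in R206H and 54.7%, 33.4% and 69.8% in WT, while the embryonic skeletal Myh3 took 55.3%, 53.7% and 79.2% in R206H and 36.1%, 55.0% and 24.2% in WT. Libraries 1 and 2 of R206H and library 2 of WT were alike in this family.

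**Figure D4:**
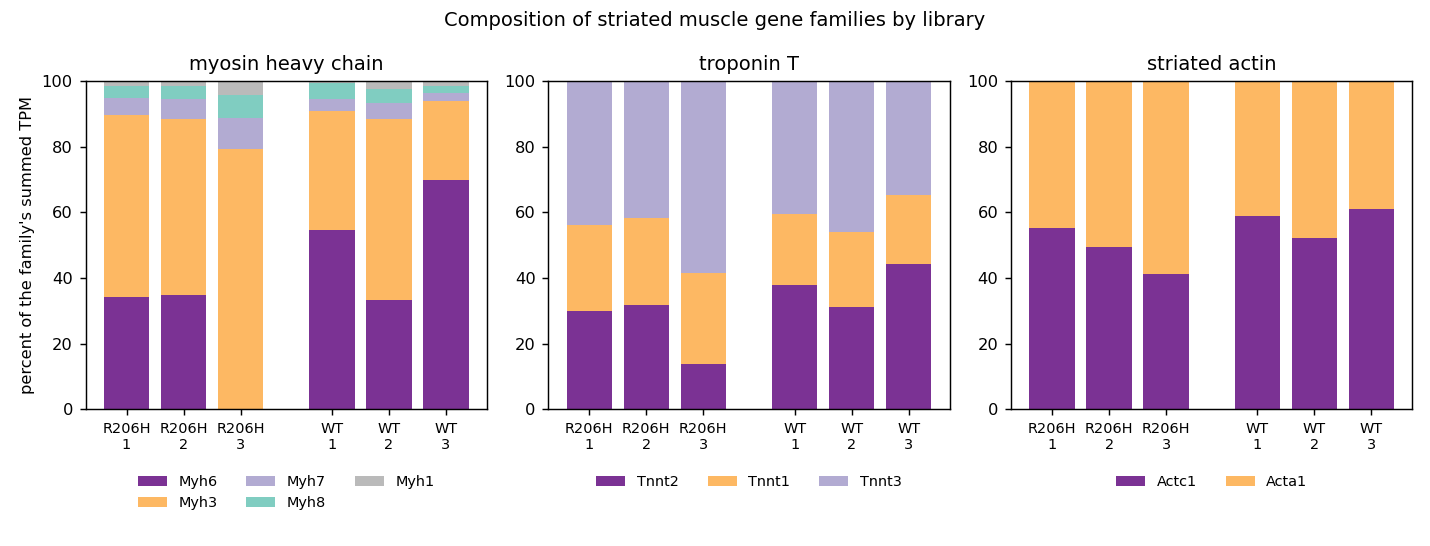
Share of each gene in the summed TPM of its family (percent) for 5 myosin heavy chain, 3 troponin T and 2 striated actin genes, with R206H libraries left of WT libraries. The cardiac forms Myh6, Tnnt2 and Actc1, at the bottom of each bar, have their lowest shares in R206H library 3, at 0%, 13.7% and 41.2%.

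Across the 6 libraries, log2(TPM + 1) of Myog varied most like that of Actc1 and Mymk among the members (Pearson r of 0.93 for both). Values for Myod1, Tnnt2 and Acta1 were 0.89, 0.82 and 0.80, and that for Des was 0.37. These coefficients describe 6 points that share their library and genotype. Among 11716 genes with 5 TPM or more in a library, the 10 outside the members with the highest coefficient, 0.95 to 0.99, included Ado, Gnao1, Gm37963, Dmwd, Pkia, Srl, Mrpl40, Fam49a and Prpsap2. Of these, Srl, which encodes the sarcoplasmic reticulum protein sarcalumenin, was on a muscle list.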

How the data were processed

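The authors deposited TPM (length-scaled transcript shares) for 49315 Ensembl genes in 6 libraries of total RNA depleted of ribosomal RNA and read as 150 bp pairs, per the labels' protocols. Per the submitters' processing notes, the tools were Trimmomatic, STAR, Subread, featureCounts and DESeq2, on GRCm38 (mm10), with neither roles nor versions. The sources used here do not state gene lengths or strandedness. Since TPM are shares, abundant genes lower others.

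The 14818 genes that reached 1 TPM in 3 or more libraries were tested on log2(TPM + 1), which understates changes of low genes, with limma 3.58.1 in R 4.3.3 (mean-variance trend, two-sided, Benjamini-Hochberg). Reads were rebuilt from exon lengths of GENCODE M21, where 91.1% to 91.5% of low values were whole within 0.05. Limits of 3 reads and read intervals cover counting error only. The members and lists were chosen with earlier results of these data known. Named were all members, called list genes, up to 4 list genes with the smallest p, up to 4 with the highest mean and the 10 most like Myog, of which 1 is not reported here. Pax3, Calcr, Cdh15, Mymx, Tnnt1, Myh2, Myh3, Myh4, Chrne, Mybpc3, Myl2, Nkx2-5, Myh11, the gene families and genes called by voom alone were chosen after their values were seen. Alternatives were other pseudocounts, filters, scalings, weights, a replicate block, single libraries left out and limma voom.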

Additional observations from a re-analysis of the deposited data

How the results depend on the processing

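The members called numbered 0 in all alternatives but one: leaving out single libraries gave 0 to 2, with 2 without R206H library 1. The log2 difference of Myod1 was 0.01 and 0.11 without R206H libraries 2 and 3, and that of Acta1 was 0.12 without R206H library 2, none of them called; over all single libraries left out, Myod1 ranged from -0.49 to 0.11 and Acta1 from -0.31 to 0.12. Over all tested genes, 303 were called, against 129 with a pseudocount of 0.1, 2 with no filter, 587 with a filter at TPM 5, 200 with quantile normalization, 27 without the trend, 1906 with library weights, 1304 with limma voom and 0 to 722 without single libraries (722 without R206H library 1, 0 without R206H 2, where 3082 had an unadjusted limma p under 0.05, 1 without R206H 3 or WT 3, 5 without WT 2 and 288 without WT 1). In the 7 muscle lists (without the partners and inhibitors), 1 gene was called, against 0 with a pseudocount of 0.1, no filter, quantile normalization or no trend, 3 with a filter at TPM 5, 6 with library weights, 5 with limma voom and 0 to 5 without single libraries. The cause was not tested. With the replicate number as a block, 0 of all tested genes were called, 0 in the muscle lists and 0 members. In that fit 3301 genes had an unadjusted limma p under 0.05. Same-numbered libraries did not deviate together over the tested genes (r of 0.0180, 0.0599 and -0.0283). With 3 libraries of each genotype this cannot settle whether the numbers pair libraries, which the labels do not state. Depth limits Pax7, Myf5 and Myf6, each at 13 reads or fewer in every library.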

Other observations

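Tnnt2 was also set against all genes with 5 TPM or more in a library, a comparison added after the values were seen. The 10 genes whose log2(TPM + 1) varied most like it over the 6 libraries had Pearson coefficients of 0.98 to 0.99 and included Mb and the cardiac myosin-binding protein gene Mybpc3, with no other gene of the muscle or cardiac lists. Mybpc3 had 7.52, 4.39 and 0.211 TPM in R206H and 12.8, 7.95 and 19.6 TPM in WT. Of 7 tested muscle energy genes, 0 passed with limma and 2 had an unadjusted p under 0.05, against 2.04% and 26.1% of all genes. Cox6a2, a cytochrome oxidase subunit gene of heart and skeletal muscle, had 3.27, 2.78 and 1.55 TPM in R206H and 8.10, 3.70 and 8.51 TPM in WT, with groups that did not overlap (log2 difference -1.10, limma adjusted p = 0.0963). Cox8b, another such subunit gene, had 3.80, 0.583 and 1.47 TPM in R206H and 22.4, 0.821 and 4.91 TPM in WT, so WT library 1 stood far above the other 5 libraries.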
